A study of Mus musculus with 12 samples.

Results

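The genes of sterol and fatty acid synthesis were followed in luminal and basal epithelial cells sorted from the prostates of intact and castrated mice. The set holds 35 genes chosen by symbol: enzymes of the mevalonate and sterol pathway, the regulators of the sterol regulatory element binding proteins (SREBPs), carriers for sterol transport and efflux, and enzymes that make, desaturate and elongate fatty acids. Each gene was read from the probe set that is annotated to its symbol alone, and where a gene had several, from the one with the highest mean log2 signal. Such a probe set was found for 34 of the 35 genes (Acat2 was not analysed here), out of 18193 genes with such a probe set in all. All 34 passed the filter on dim probe sets that left 14645 genes for testing. Tm7sf2 was above the filter's level on 6 of the 12 arrays and Dhcr7 on 7, and the other 32 on 9 to 12.

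Gene expression was measured on 12 arrays, with 3 biological replicates in each of 4 groups. All mice were C57BL/6 males, and the labels name no transgene, allele or drug in any group. Mice 8 weeks old were castrated by surgery or kept intact, and the prostates were taken 4 weeks later and dissociated. Luminal cells were gated as Lin- CD49f lo EpCAM+ and basal cells as Lin- CD49f hi EpCAM+, so a group is a sorted gate, and its RNA was amplified before labelling. Each group is named here by the state of the mice and the gate, such as intact luminal.

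Cells build cholesterol from acetyl-CoA by way of mevalonate, farnesyl diphosphate, squalene and lanosterol. SREBP-2, encoded by Srebf2, drives transcription of these enzymes when sterols in the endoplasmic reticulum are low, SREBP-1 (Srebf1) acts more on fatty acid genes, Scap escorts both to the Golgi, and the Insig proteins hold Scap back when sterols are high. Prostate epithelium is known for a high content of cholesterol, and androgens are known to raise lipid synthesis genes in prostate cancer cells.

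Values are MAS5 signals, which are intensities in arbitrary units scaled to the same trimmed mean of 500 on every array. The correlation of log2 signals between replicates of a group was 0.863 to 0.967. As a check on the castration label, Pbsn, the androgen-dependent secretory gene probasin, had signals of 57930, 56240 and 70160 in intact luminal cells against 5953, 4690 and 4837 in castrated luminal cells, and of 4705 to 12420 in intact basal cells against 19.11 to 133.9 in castrated basal cells. The basal keratin Krt5 had signals of 15240 to 31830 in the 6 basal samples and of 5.892 to 488.6 in the 6 luminal samples. The luminal keratin Krt8 was bright in both gates, at 21540 to 28990 in luminal and 10950 to 19290 in basal cells. The array numbered 3 received the lowest weight of its group in all 4 groups when limma estimated array weights. In these bulk samples, fewer cells of a type and less RNA per cell cannot be told apart.

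The first question was how the pathway differed between castrated and intact mice in each cell type. Of the 34 genes, 4 rose in luminal cells after castration (Hmgcs1, Sqle, Cyp51 and Msmo1) and 1 fell (Fads1), at an adjusted p under 0.05 over all 14645 genes. In basal cells 0 rose and 6 fell (Hmgcs1, Idi1, Sqle, Cyp51, Insig1 and Srebf2). Hmgcs1, Sqle and Cyp51 were thus called in opposite directions in the 2 cell types, with the Sqle calls near the threshold in both. The background was 2.90% of all genes called higher and 2.96% called lower in luminal cells, and 1.12% and 1.50% in basal cells. The median log2 fold change of the 34 genes was 0.41 in luminal cells, where it was -0.09 over all genes, and -0.49 in basal cells, where it was -0.11 over all genes. The luminal median was 0.11 without intact luminal replicate 3, 0.08 with array weights, 0.15 with all 4 arrays numbered 3 left out and 0.79 with each array centred on its median. The basal median ran from -0.69 without castrated basal replicate 2 to -0.33 without intact basal replicate 2, and was -0.15 with that centring.

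The difference between the cell types was tested itself, as the luminal change minus the basal change. It passed for 5 of the 34 genes, Hmgcs1, Idi1, Sqle, Cyp51 and Insig1, each with the luminal change above the basal change, against 0.676% of all genes called in that direction. It passed in the opposite direction for 0 of the 34, with 1 (Fads1) at an adjusted p of 0.0557 and at 0.0479 when 64 in place of 16 was added to the signals before the logarithm. The brighter probe set of Fads1, used here, gave -2.38, and its other probe set gave 0.20, of the opposite sign and not passing. When samples were matched by replicate number, Hmgcs1, Idi1, Sqle and Cyp51 were each higher in the castrated luminal sample in 3 of 3 sets. In basal cells each was lower in the castrated sample in 3 of 3 sets. The same held for Fdps, Fdft1, Hsd17b7 and Srebf2, for which the test did not pass. The luminal differences of Fdft1 in the 3 sets were uneven, at 0.014, 0.313 and 2.443. Insig1 was higher in 2 of 3 luminal sets and lower in 3 of 3 basal sets. Castrated and intact samples of Hmgcs1, Sqle and Cyp51 did not overlap in either cell type, so any matching gives these counts. For those genes the counts therefore add nothing to the test. All 5 calls were lost when the prior variance was not allowed to depend on intensity (adjusted p of 0.0522 to 0.110). With all 4 arrays numbered 3 left out, the calls on Sqle and Insig1 were lost (log2 difference 2.56 and 2.23, adjusted p of 0.054 and 0.0522).

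**Figure D1:**
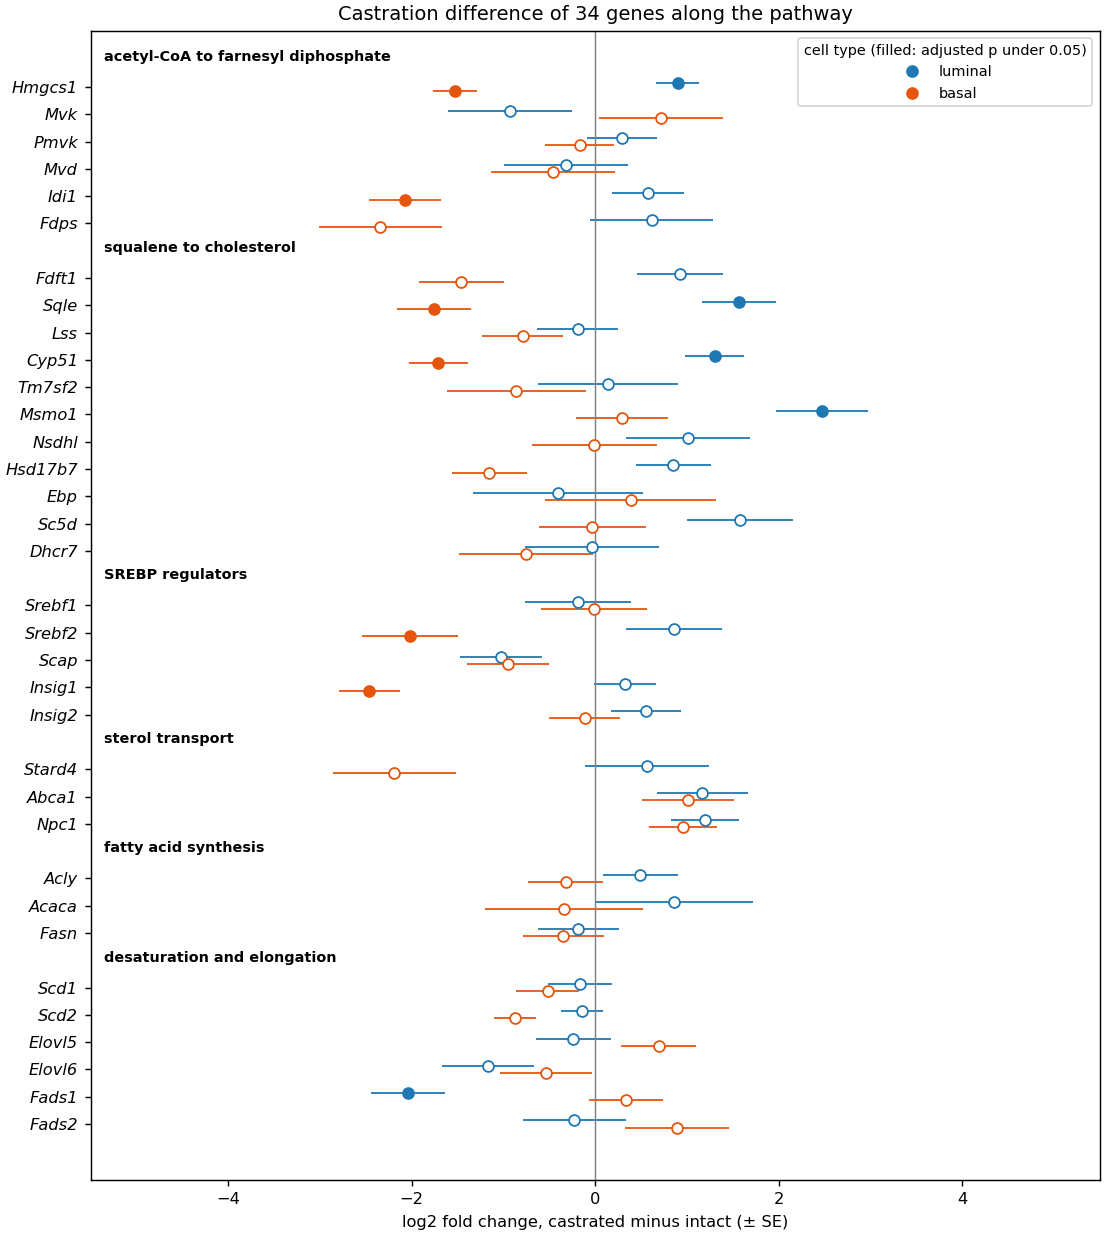
Castration difference of the 34 genes, in the order of the pathway, on the log2 scale (castrated minus intact, with standard errors), for luminal cells in blue and basal cells in orange. Filled points have an adjusted p under 0.05; 4 luminal points are filled right of 0 and 1 left of it, and the 6 filled basal points all lie left of 0.

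Promoter windows of 6 genes are printed here, since the first 5 carry calls on castration and the last, Fasn, the fatty acid synthase, carries none. Each runs from 250 bases before to 50 bases after the start of transcription in RefSeq on build GRCm38.p6, written 5′ to 3′ along the gene's own strand. Capitals mark matches to the sterol regulatory element letters TCACNCCAC and to the NF-Y box CCAAT, on either strand, so that ATTGG is CCAAT read from the other strand. The windows lie at chr13:119690101-119690400 (plus strand, Hmgcs1), chr13:8885356-8885655 (plus, Idi1), chr5:4104648-4104947 (minus, Cyp51), chr5:28071162-28071461 (plus, Insig1), chr8:64733529-64733828 (minus, Msmo1) and chr11:120824498-120824797 (minus, Fasn).
Hmgcs1: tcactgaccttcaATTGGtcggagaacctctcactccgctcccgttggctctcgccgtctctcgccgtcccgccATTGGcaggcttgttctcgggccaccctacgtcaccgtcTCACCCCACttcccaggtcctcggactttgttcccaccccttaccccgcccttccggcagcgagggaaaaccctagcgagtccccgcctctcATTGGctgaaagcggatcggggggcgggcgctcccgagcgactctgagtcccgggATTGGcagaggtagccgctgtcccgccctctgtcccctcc
Idi1: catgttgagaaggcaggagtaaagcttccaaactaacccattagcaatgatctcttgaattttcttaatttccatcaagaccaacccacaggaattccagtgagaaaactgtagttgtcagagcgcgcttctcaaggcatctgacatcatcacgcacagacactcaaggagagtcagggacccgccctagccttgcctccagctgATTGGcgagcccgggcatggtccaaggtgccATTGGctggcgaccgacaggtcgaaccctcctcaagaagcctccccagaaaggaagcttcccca
Cyp51: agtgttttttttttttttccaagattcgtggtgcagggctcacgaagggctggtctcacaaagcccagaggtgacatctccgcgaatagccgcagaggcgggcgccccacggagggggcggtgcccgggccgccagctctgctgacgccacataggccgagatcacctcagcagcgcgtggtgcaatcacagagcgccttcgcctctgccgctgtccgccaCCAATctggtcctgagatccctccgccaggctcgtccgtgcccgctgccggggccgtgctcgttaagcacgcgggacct
Insig1: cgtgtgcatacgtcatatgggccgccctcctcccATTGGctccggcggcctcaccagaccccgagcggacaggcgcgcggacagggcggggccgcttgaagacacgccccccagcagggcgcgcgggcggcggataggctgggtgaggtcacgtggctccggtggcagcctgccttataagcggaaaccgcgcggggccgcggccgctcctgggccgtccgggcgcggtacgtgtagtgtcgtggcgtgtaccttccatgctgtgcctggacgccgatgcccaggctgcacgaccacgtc
Msmo1: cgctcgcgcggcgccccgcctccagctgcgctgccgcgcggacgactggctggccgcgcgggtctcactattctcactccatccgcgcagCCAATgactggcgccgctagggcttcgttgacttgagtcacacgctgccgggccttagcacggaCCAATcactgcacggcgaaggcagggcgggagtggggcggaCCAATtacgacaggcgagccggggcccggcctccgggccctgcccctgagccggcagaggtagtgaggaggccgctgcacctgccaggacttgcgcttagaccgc
Fasn: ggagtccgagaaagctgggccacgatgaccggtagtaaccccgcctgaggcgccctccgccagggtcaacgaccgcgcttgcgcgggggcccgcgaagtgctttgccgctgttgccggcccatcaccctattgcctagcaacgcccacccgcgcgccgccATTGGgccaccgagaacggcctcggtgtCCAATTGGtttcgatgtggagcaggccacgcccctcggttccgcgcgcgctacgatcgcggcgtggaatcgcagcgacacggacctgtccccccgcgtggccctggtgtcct

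A window was found for 27 of the 35 genes, and the other 8, Fdps, Fdft1, Sqle, Stard4, Npc1, Scd1, Scd2 and Fads1, have no sequence here. The letters TCACNCCAC occurred in 1 of the 27, that of Hmgcs1, 137 to 129 bases before the start, and in 1.45% of the 11725 tested genes with a window. CCAAT occurred in 21 of the 27 (77.8%) and in 41.9% of the tested genes with a window. The Sp1 box GGGCGG occurred in 22 of the 27 (81.5%) against 7505 of the 11725 tested genes, and the E-box CACGTG in 7 (25.9%) against 11.0%. All were searched on both strands, and in the Fasn window CCAAT and ATTGG overlap. CCAAT matches lay in the windows of genes that were called on castration, such as Idi1 and Msmo1, and of genes that were not, such as Fasn, Mvk and Pmvk. A match of letters is a description of the window and not a site shown to be bound. Other forms of these motifs, and sites outside the windows, were not searched. A window without a match is thus not shown to lack the element.

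Along the steps from acetyl-CoA to farnesyl diphosphate, 1 of 6 genes rose and 0 fell in luminal cells, and 0 rose and 2 fell in basal cells. Hmgcs1 is the cytosolic synthase that joins acetyl-CoA and acetoacetyl-CoA to HMG-CoA. Its signals were 4107, 3435 and 3009 in intact luminal cells, 4917, 7802 and 7224 in castrated luminal cells, 11000, 14446 and 19250 in intact basal cells, and 5105, 5493 and 4534 in castrated basal cells. The intact basal samples stood above all others and the intact luminal samples below all others, and the castrated samples of the 2 cell types came together in between, with an overlap. Hmgcs1 rose by 0.90 ± 0.24 (SE, n = 3 against 3) on the log2 scale in luminal cells (adjusted p = 0.0327) and fell by 1.53 ± 0.24 in basal cells (adjusted p = 0.0028). The difference between these changes was 2.43 ± 0.34 (adjusted p = 0.00269). All 4 tested probe sets of Hmgcs1 were higher in castrated luminal and lower in castrated basal cells, 3 of them past the threshold in each.

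Idi1, the isomerase that interconverts the isoprenoid building blocks, had signals of 1261, 1337 and 2654 in intact luminal and 2063, 1846 and 3962 in castrated luminal cells. In basal cells its signals were 3276, 4442 and 3112 in intact and 788, 1328 and 550 in castrated mice. The luminal groups overlapped, while every castrated basal sample was under every intact basal sample by more than the range of the castrated group. Idi1 fell by 2.08 ± 0.39 in basal cells (adjusted p = 0.0111) and both its probe sets passed there, whereas the luminal difference of 0.58 ± 0.39 did not pass (adjusted p = 0.456). The difference between the changes was 2.66 ± 0.56 (adjusted p = 0.0254), and it lost its call in 7 of the 12 fits that left out 1 array (values of 2.32 to 2.79, adjusted p of 0.0507 to 0.106).

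Fdps, which makes farnesyl diphosphate, was read at 477, 268 and 160 in intact basal and 74, 102 and 1.79 in castrated basal cells. The groups were apart, but castrated basal replicate 3 lay far under the others of its group, and the difference of -2.34 ± 0.67 did not pass (adjusted p = 0.0697) and was -1.50 without that sample. The 3 remaining enzymes of this stretch are the mevalonate kinase Mvk, the phosphomevalonate kinase Pmvk and the decarboxylase Mvd. Their luminal log2 differences of -0.93, 0.30 and -0.32 and their basal differences of 0.72, -0.17 and -0.46 did not pass. The other probe set of Mvk had the opposite sign in both, at 0.71 in luminal and -0.72 in basal cells, so Mvk has no clear direction.

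Along the 11 steps from squalene synthase to cholesterol, 3 genes rose in luminal cells and 0 fell, and 2 fell in basal cells and 0 rose. The median log2 difference of the 11 was 0.92 in luminal and -0.79 in basal cells. Castrated and intact luminal samples did not overlap, with the castrated samples above, for 7 of these 11 genes, and for 10 of all 34 genes, against 14.9% of all genes. They did not overlap in the other direction for 3 of the 34, against 16.8% of all genes. In basal cells the castrated samples lay apart below for 11 of the 34 genes, against 11.1% of all genes, and apart above for 2, against 8.71%.

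Sqle, the epoxidase that commits squalene to sterols, had signals of 585, 1036 and 425 in intact luminal and 1699, 1552 and 2708 in castrated luminal cells. Its signals were 2136, 1522 and 1639 in intact basal and 577, 664 and 338 in castrated basal cells. The groups traded places: castrated luminal samples overlapped intact basal samples at the high end, and intact luminal samples overlapped castrated basal samples at the low end. Sqle rose by 1.57 ± 0.40 in luminal cells (adjusted p = 0.0266) and fell by 1.76 ± 0.40 in basal cells (adjusted p = 0.0303), a difference of 3.33 ± 0.57 (adjusted p = 0.00742). Its basal call was lost without castrated luminal replicate 1, any of the 3 intact basal samples or castrated basal replicate 3 (adjusted p of 0.0538 to 0.0891), and also with median centring, array weights, no intensity trend or all 4 arrays numbered 3 left out (0.0513 to 0.0717).

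Cyp51, the lanosterol demethylase, showed the same high and low groups. Its signals were 2494, 2280 and 1510 in intact and 4883, 4463 and 5994 in castrated luminal cells. In basal cells they were 4396, 3731 and 4922 in intact and 749, 1767 and 1695 in castrated mice. Within each cell type the castrated and intact samples did not overlap. Cyp51 rose by 1.30 ± 0.32 in luminal cells (adjusted p = 0.023) and fell by 1.71 ± 0.32 in basal cells (adjusted p = 0.0111), a difference of 3.01 ± 0.46 (adjusted p = 0.00374). Of its 3 probe sets, 2 passed in luminal and 3 in basal cells, each in the direction of the brightest.

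Msmo1, the methylsterol monooxygenase that acts after Cyp51, showed a luminal change without a basal one passing the test. Its signals were 361, 518 and 92.2 in intact luminal and 1346, 1685 and 1595 in castrated luminal cells, with 665, 935 and 494 in intact basal and 760, 755 and 997 in castrated basal cells. The castrated luminal samples stood above all 9 others, and the basal groups overlapped. Msmo1 rose by 2.47 ± 0.50 in luminal cells (adjusted p = 0.00618), and the basal difference was 0.29 ± 0.50 (adjusted p = 0.816). The difference between these changes, 2.18 ± 0.71, did not pass (adjusted p = 0.179). The luminal call rests on the brighter of 2 probe sets: the dimmer gave 0.38, and the mean of both gave 1.43 with an adjusted p of 0.103.

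The luminal rises of Hmgcs1, Sqle and Cyp51 lie near the threshold. The count of 4 risen genes became 1 without intact luminal replicate 3, castrated luminal replicate 2 or castrated luminal replicate 3, and 2 without castrated luminal replicate 1. In the fits that lost them, Hmgcs1 was at 0.77 to 0.89 (adjusted p of 0.0793 to 0.163), Sqle at 1.29 to 1.73 (0.0599 to 0.169) and Cyp51 at 1.08 to 1.39 (0.0594 to 0.126). Msmo1 in luminal cells, and Hmgcs1, Idi1, Cyp51 and Insig1 in basal cells, passed in each of the 12 fits that left out 1 array.

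**Figure D2:**
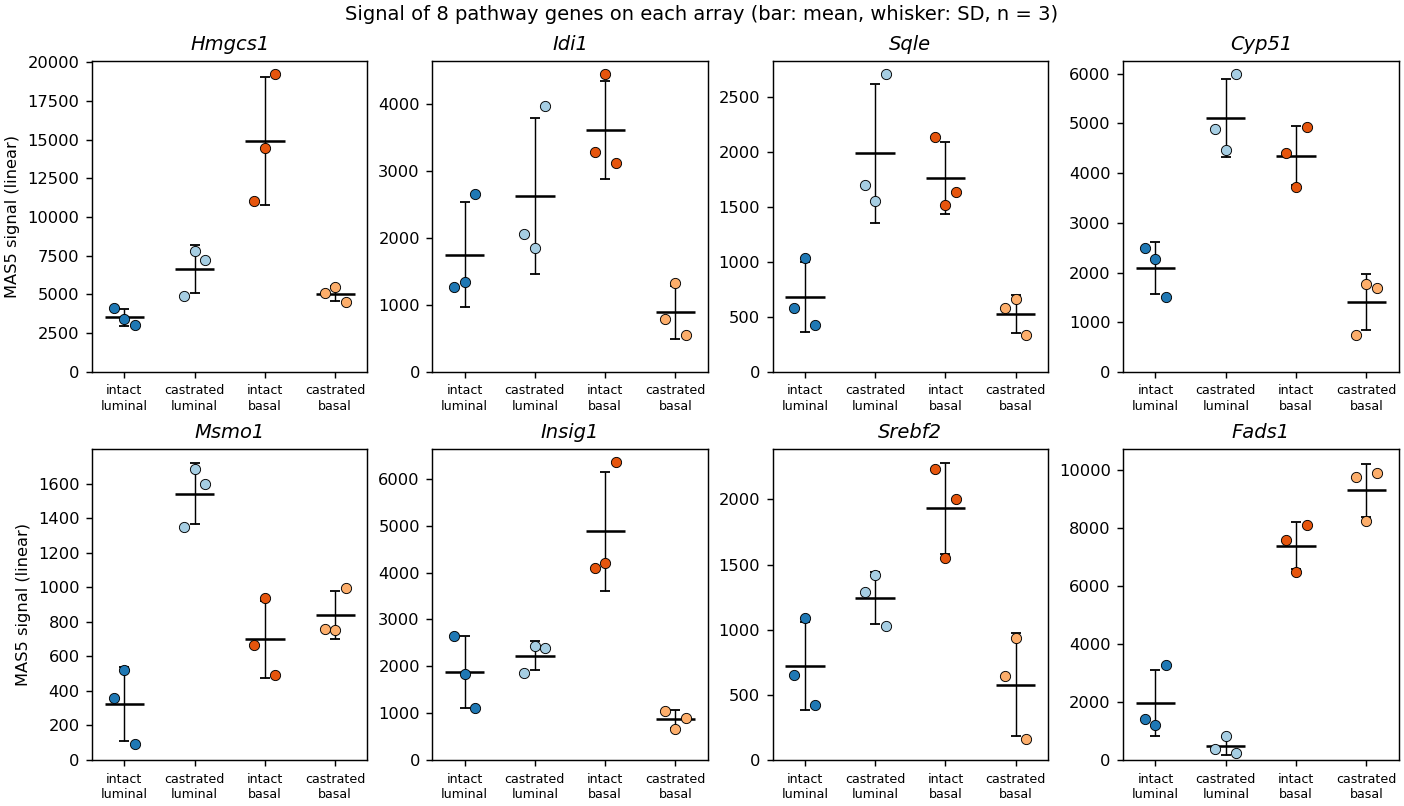
MAS5 signal in arbitrary units, on a linear axis from 0, in each of the 12 samples for the 8 genes called on castration; each point is a sample, the bar is the mean of the 3 samples of a group and the whisker their SD. Hmgcs1, Sqle and Cyp51 are higher in castrated than intact luminal samples and lower in castrated than intact basal samples, and Fads1 is lower in all 3 castrated luminal samples.

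The remaining 8 enzymes of this stretch passed in neither cell type. Fdft1, the squalene synthase, was at 0.92 ± 0.47 in luminal and -1.46 ± 0.47 in basal cells (adjusted p = 0.298 and 0.107). Its luminal signals were 4784, 4784 and 1145 in intact and 4832, 5949 and 6297 in castrated mice. Much of its luminal difference thus comes from intact luminal replicate 3. Of its 4 probe sets, 2 were higher and 2 lower in castrated luminal cells. Hsd17b7, a reductase of sterol intermediates, was at 0.85 ± 0.41 and -1.15 ± 0.41 (adjusted p = 0.269 and 0.148), with luminal signals of 559, 537 and 599 in intact and 835, 1065 and 1241 in castrated mice that did not overlap. Sc5d, the sterol desaturase, had luminal signals of 1228, 780 and 122 in intact and 1585, 1408 and 1574 in castrated mice. Its luminal difference of 1.58 ± 0.58 did not pass (adjusted p = 0.131), and without intact luminal replicate 1 it was 2.21 with an adjusted p of 0.0345. Matched by replicate number, the Sc5d differences were 0.363, 0.839 and 3.525. Much of the mean thus comes from intact luminal replicate 3, at 122. Lss, the lanosterol synthase, the reductase Tm7sf2, the dehydrogenase Nsdhl, the isomerase Ebp and Dhcr7, the reductase of the last step, had luminal differences of -0.41 to 1.01 and basal differences of -0.86 to 0.39.

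Over the 17 sterol enzymes, each centred on its own mean over the 12 arrays, the median log2 value was 0.50, 0.21 and -0.22 in the intact luminal samples and 0.81, 0.59 and 0.85 in the castrated luminal samples. It was 0.48, 0.42 and -0.16 in the intact basal samples and -0.68, -0.44 and -1.56 in the castrated basal samples. The castrated luminal samples were above all others and the castrated basal samples below all others. Within both intact groups the sample numbered 3 was lowest, and so it was in castrated basal cells. When each array was instead centred on its own median, all genes together shifted, their median going from -0.09 to 0.29 in luminal and from -0.11 to 0.23 in basal cells. The sterol enzymes then had medians of 1.00 and -0.45. Under that centring the genes called in luminal cells were 1021 higher and 252 lower, in place of 424 and 434, and in basal cells 511 and 115, in place of 164 and 220.

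Among the 5 SREBP regulators, 0 genes rose or fell in luminal cells and 2 fell in basal cells. Insig1, which holds the SREBP escort in the endoplasmic reticulum and is itself a target of SREBPs, had signals of 4104, 4193 and 6349 in intact basal and 1055, 665 and 888 in castrated basal cells. Its luminal signals were 2655, 1843 and 1115 in intact and 1864, 2427 and 2384 in castrated mice. Basal groups lay far apart and luminal groups overlapped. Insig1 fell by 2.46 ± 0.34 in basal cells (adjusted p = 0.000718), and the luminal difference was 0.32 ± 0.34 (adjusted p = 0.659). The difference between these changes was 2.79 ± 0.47 (adjusted p = 0.00732). The basal fall passed under every alternative that was run.

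Srebf2, the gene of SREBP-2, had signals of 2236, 1550 and 2007 in intact basal and 642, 938 and 157 in castrated basal cells, and of 656, 1091 and 420 in intact luminal and 1288, 1418 and 1025 in castrated luminal cells. The basal groups did not overlap and the luminal groups did. Srebf2 fell by 2.01 ± 0.52 in basal cells at the edge of the threshold (adjusted p = 0.0496), and 10 of the 12 fits that left out 1 array, and 8 of 11 other alternatives, lost the call. Insig2, Srebf1 and Scap passed in neither cell type. Scap had differences of -1.02 ± 0.45 in luminal and -0.95 ± 0.45 in basal cells (adjusted p = 0.218 and 0.281), and Srebf1 of -0.19 and -0.01.

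Of the 3 transport genes, 0 passed in either cell type. Stard4, a carrier of cholesterol between membranes, was read at 1042, 1518 and 876 in intact basal and 99.5, 218 and 551 in castrated basal cells, groups that did not overlap, with a difference of -2.19 ± 0.67 (adjusted p = 0.0921). All 3 of its probe sets were lower and none passed, while the mean of the 3 did (-2.03, adjusted p = 0.0228). Npc1, which exports cholesterol from lysosomes, was read at 971, 807 and 565 in intact luminal and 1782, 1868 and 1659 in castrated luminal cells, a difference of 1.20 ± 0.37 (adjusted p = 0.0713). The groups did not overlap there, and Npc1 was at 0.96 ± 0.37 in basal cells (adjusted p = 0.188). Abca1, the efflux pump, stood at 1.17 ± 0.50 and 1.01 ± 0.50 (adjusted p = 0.202 and 0.3).

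The 9 fatty acid genes gave 0 higher and 1 lower in luminal cells, and 0 in either direction in basal cells. Their median log2 difference was -0.18 in luminal and -0.34 in basal cells, and 0.20 and 0.00 when arrays were centred on their medians, so it carries no direction. For Fasn, the fatty acid synthase, signals were 601, 810 and 550 in intact and 485, 487 and 766 in castrated luminal cells. They were 787, 615 and 499 in intact and 612, 700 and 267 in castrated basal cells. All 4 groups overlapped, and the differences were -0.18 ± 0.44 and -0.34 ± 0.44 (adjusted p = 0.868 and 0.739). Acly, which makes cytosolic acetyl-CoA from citrate, was at 0.49 and -0.32, and Acaca, the acetyl-CoA carboxylase, at 0.86 and -0.34, none passing. Of the 5 tested probe sets of Acly, 2 were higher and 3 lower in castrated luminal cells. Acaca had luminal signals of 573, 350 and 8.72 in intact and 234, 246 and 467 in castrated mice, and its other probe set gave -0.55. Neither gene thus has a clear luminal direction. Scd2, a stearoyl-CoA desaturase, was read at 2621, 3863 and 3037 in intact basal and 1757, 1872 and 1506 in castrated basal cells, groups apart, with a difference of -0.87 ± 0.23 (adjusted p = 0.0531). Scd1, Elovl5, Elovl6 and Fads2 passed in neither cell type, with Elovl6, an elongase, at -1.17 ± 0.50 in luminal cells (adjusted p = 0.204).

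Fads1, the desaturase that acts late in the making of arachidonic acid, was the member that fell in luminal cells. Its signals were 1400, 1208 and 3276 in intact luminal and 376, 827 and 231 in castrated luminal cells, against 7582, 6488 and 8078 in intact basal and 9754, 8241 and 9883 in castrated basal cells. All castrated luminal samples lay under all intact luminal samples, and all basal samples lay above all luminal ones. Fads1 fell by 2.04 ± 0.40 in luminal cells (adjusted p = 0.00517), and the basal difference was 0.33 ± 0.40 (adjusted p = 0.727). The call rests on the brighter of 2 probe sets, since the mean of both gave -1.35 (adjusted p = 0.178), and it was lost with all 4 arrays numbered 3 left out (-1.20, adjusted p = 0.0789).

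**Figure D3:**
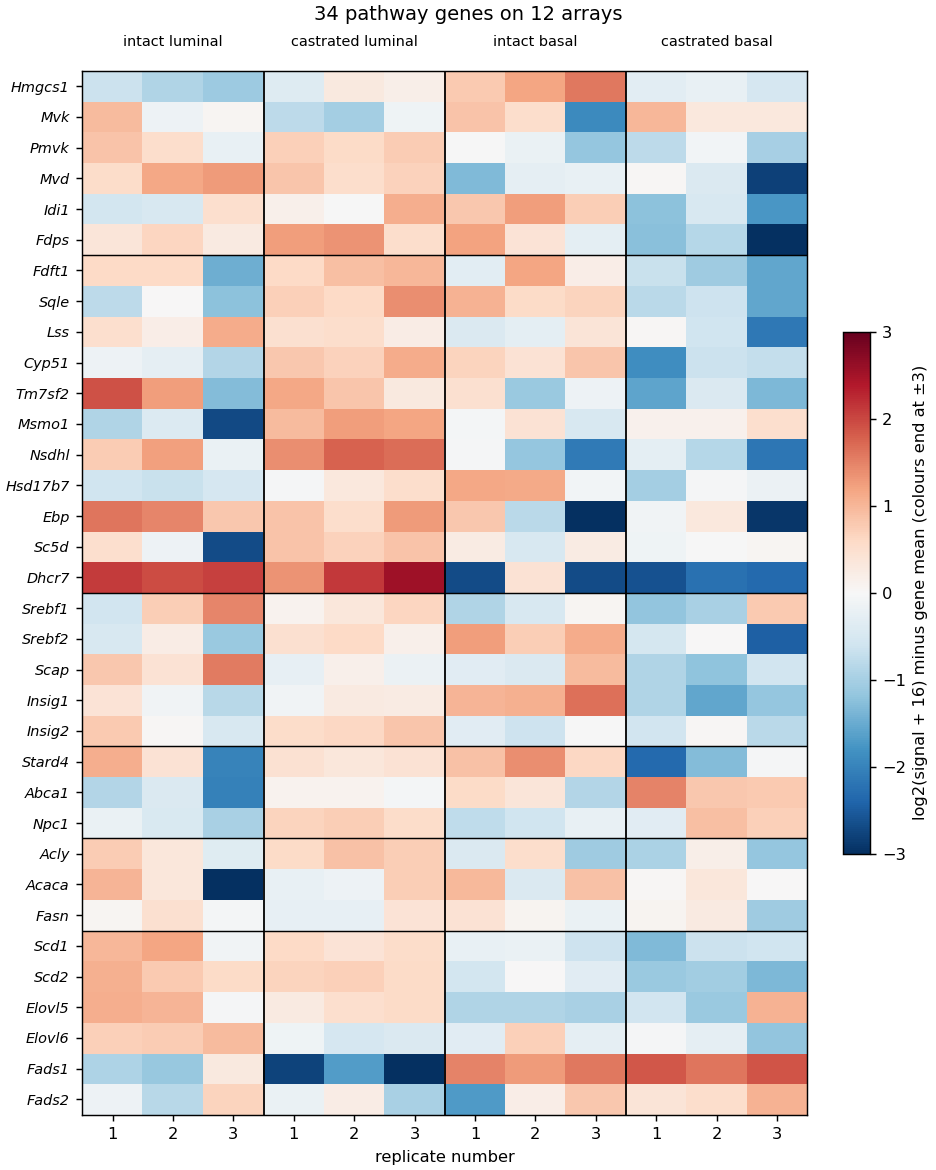
Log2(signal + 16) of the 34 genes in the 12 samples, each gene centred on its own mean over the samples, in the order of the pathway. Red is above and blue below the gene's mean, with colours ending at 3 log2 units either way; the castrated basal columns are mostly blue over the sterol enzymes, whose median there was -0.68, -0.44 and -1.56, and the castrated luminal columns mostly red.

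Luminal and basal cells were then compared within intact and within castrated mice. These comparisons use the same arrays as the castration comparisons. In intact mice 4 of the 34 genes were higher in luminal cells (Dhcr7, Scd1, Scd2 and Elovl5) and 6 were lower (Hmgcs1, Sqle, Cyp51, Hsd17b7, Insig1 and Fads1), where 11.0% and 8.45% of all genes were called. The luminal samples lay apart above for 6 genes and apart below for 8, against 18.0% and 14.0% of all genes. In castrated mice 13 were higher in luminal cells and 1 was lower, where 11.2% and 7.22% of all genes were called. The 13 were Pmvk, Idi1, Fdps, Fdft1, Sqle, Lss, Cyp51, Nsdhl, Dhcr7, Insig1, Acly, Scd1 and Scd2, and the 1 was Fads1. The luminal samples lay apart above for 23 of the 34 genes and apart below for 4, against 23.6% and 17.5% of all genes. The median log2 difference of the 34 genes was 0.09 in intact and 1.31 in castrated mice, where that of all genes was 0.07 and 0.09; the intact value ran from 0.01 without intact basal replicate 3 to 0.29 without intact basal replicate 1.

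Sqle, Cyp51 and Insig1 were lower in luminal than basal cells in intact mice, by log2 differences of -1.43, -1.07 and -1.43 (adjusted p = 0.018, 0.0267 and 0.00582), and higher in castrated mice, by 1.90, 1.94 and 1.36 (adjusted p = 0.00286, 0.000407 and 0.00862). For Hmgcs1 the intact difference of -2.05 ± 0.24 (adjusted p = 1.31e-05) was followed by 0.37 ± 0.24 in castrated mice (adjusted p = 0.313). Dhcr7 was higher in luminal cells in both: its signals were 555 to 616 in intact and 356 to 845 in castrated luminal cells, and 6.79 to 184 in intact and 8.09 to 15.1 in castrated basal cells. The log2 differences were 3.68 ± 0.73 (adjusted p = 0.00178) and 4.40 ± 0.73 (adjusted p = 0.000411), and only 1 basal sample was above the level of the dim filter, so their size depends on the constant added. Scd2 was likewise higher in luminal cells in intact and castrated mice, by 1.10 ± 0.23 and 1.83 ± 0.23 (adjusted p = 0.00265 and 2.94e-05). Fads1 was lower in luminal cells in both, by -2.04 ± 0.40 and -4.42 ± 0.40 (adjusted p = 0.0017 and 1.06e-06). The other probe set of Fads1 gave -1.37 in intact and -1.17 in castrated mice and passed in neither, so the larger castrated difference is seen on 1 probe set. The mean of both probe sets passed in each. Fdps, at 494, 529 and 295 in castrated luminal cells against 74, 102 and 1.79 in castrated basal cells, differed by 2.94 ± 0.67 (adjusted p = 0.00498), and by 2.10 without castrated basal replicate 3 and 3.94 when 1 in place of 16 was added to the signals. The count lower in intact mice was 3 without intact basal replicate 1, and the count higher was 2 without intact luminal replicate 1.

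Several of these calls lie near the threshold or rest on 1 probe set. Of the 12 fits that left out 1 array, 8 lost Scd1 in intact mice (adjusted p of 0.0646 to 0.195) and 9 lost Lss in castrated mice (0.052 to 0.205), and 6 of 11 other alternatives lost each, among them the replicate number as a block (0.0521 and 0.061). Pmvk and Acly in castrated mice were each lost without any of the 3 castrated luminal samples, castrated basal replicate 1 or castrated basal replicate 3 (0.06 to 0.0815 and 0.0581 to 0.0993). With its probe sets averaged, Acly was at 0.10 in castrated mice (adjusted p = 0.866) and Fdft1 at 0.60 (adjusted p = 0.295). In intact mice, 3 of the 12 fits lost Sqle (0.0544 to 0.0674), 3 lost Cyp51 (0.0657 to 0.0898) and 4 lost Hsd17b7 (0.0724 to 0.117). Averaged probe sets also lost Hsd17b7 (0.0879). Cyp51 was lost too with median centring (0.0551), no intensity trend (0.0821) or all 4 arrays numbered 3 left out (0.146). Leaving out those 4 arrays also lost Insig1 in intact mice (0.065).

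**Figure D4:**
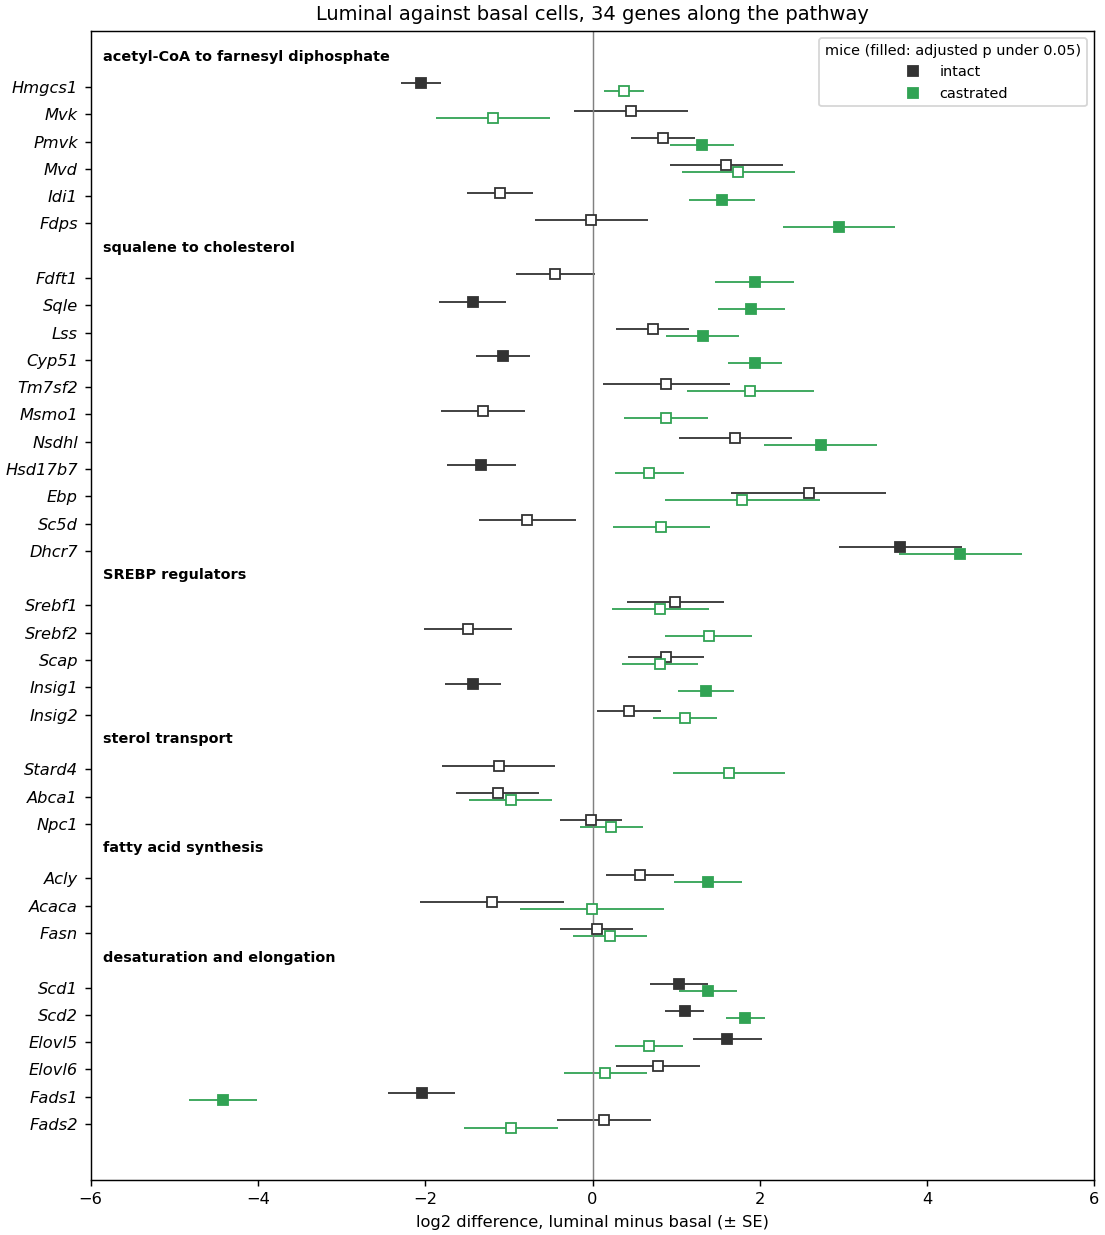
Log2 difference between luminal and basal cells for the 34 genes, with standard errors, in intact mice (dark) and castrated mice (green). Filled squares have an adjusted p under 0.05; 13 filled squares lie right of 0 in castrated mice and 4 in intact mice, and Sqle, Cyp51 and Insig1 are filled on opposite sides.

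Another list of 40 genes of lipid metabolism outside the set, of which 35 were tested, was read for comparison. It holds acyl-CoA synthetases, further elongases, SREBP proteases, oxysterol binding proteins and fatty acid oxidation genes. In luminal cells 0 of the 35 rose or fell after castration, with a median of 0.06. In basal cells 1 rose, Osbpl3, an oxysterol binding protein relative, by 2.82 ± 0.66 (adjusted p = 0.0343), and 0 fell. The difference between the cell types passed for 0 of the 35. Over all genes, 2.90% were called higher and 2.96% lower in luminal cells, and 1.12% and 1.50% in basal cells. In the test between cell types the shares were 0.676% and 0.471%. With 35 genes, the counts of this list are near those shares. Between cell types, 7 were higher in luminal cells in intact mice, among them Osbp (1.31, adjusted p = 0.00253) and the SREBP protease Mbtps1 (1.44, adjusted p = 0.0143), and 5 in castrated mice, among them Acsl5, Npc2 and Tmem97, with 0 lower in either. All genes were called higher in 11.0% and 11.2% of cases and lower in 8.45% and 7.22%.

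Markers of other cell types moved with the castration groups. Of the 7 measured luminal markers, 2 rose and 2 fell in basal cells, against 1.12% and 1.50% of all genes. Krt19 was at 4435 to 6900 in intact and 12780 to 13880 in castrated basal cells, and Epcam at 13120 to 14110 and 20790 to 26160. Hoxb13 went the other way there, from 854 to 2943 in intact to 101.9 to 393.6 in castrated mice, as did Pbsn. Of the 9 basal markers, 0 passed on castration in basal cells. The summed signal of 8 fibroblast markers was 7704 to 13800 in intact luminal and 638.6 to 876.6 in castrated luminal cells, and 39760 to 50730 in intact basal and 22400 to 29270 in castrated basal cells. Of the 8, 6 fell in luminal and 4 in basal cells. Dcn held most of the castrated basal sum, at 19300 to 25680 against 19700 to 22820 in intact basal cells. The other 7 had negative log2 differences there. The 5 measured seminal vesicle secretory genes summed to 170700 to 296200 in intact luminal and 4145 to 10590 in castrated luminal cells, and to 22410 to 34470 and 127.6 to 622.3 in basal cells. The 6 leukocyte markers summed to 9958 to 11740 in intact luminal cells, nearly all of it from Cd52 (9602 to 11520), with the defining leukocyte gene Ptprc at 32.86 to 57.09, and to 317.9 to 651.9 in castrated luminal cells. In basal cells they summed to 409.4 to 578.3 in intact and 1187 to 1387 in castrated mice, with no overlap; 1 of the 6, Lyz2, rose there, and Tyrobp also lay apart above. Adipocyte markers, whose cells make much lipid, summed to 1273 to 1549 in castrated luminal and 215.2 to 660.3 in intact luminal cells. There 3 of the 4 were dim in castrated luminal cells, with Adipoq at 5.351 to 22.66, and Lpl held nearly all of the sum. In basal cells the adipocyte sum was 613.8 to 2969 in intact and 90.31 to 215.1 in castrated mice, and Fabp4 fell. The adipocyte sum was thus higher in luminal and lower in basal cells after castration, as were Hmgcs1, Sqle and Cyp51. Its luminal rise was that of Lpl. Whether adipocytes have a part in the differences of those 3 genes was not tested. Fabp4 was at 1.309 to 18.88 in castrated luminal cells against 11.78 to 282.5 in intact ones, and Cidec at 2.625 to 5.691 against 16.39 to 59.67. Adipoq was dim in both, at 2.13 to 10.81 in intact luminal cells. The endothelial sum was 211.3 to 887.7 in intact and 37.16 to 134.1 in castrated luminal cells, and 418.3 to 945.4 and 264.3 to 297.5 in basal cells. For smooth muscle it was 409.8 to 2015 in intact and 187.9 to 376.3 in castrated luminal cells, and 1338 to 2138 and 808 to 1533 in basal cells. Both sums were thus lower in castrated luminal cells without overlap, and so was the endothelial sum in basal cells. Of the tested genes of these 2 lists, 0 passed on castration in either cell type. The part of these cell types in the differences above was not tested.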

How the data were processed

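RNA from sorted cells was amplified, labelled with biotin and hybridised to Affymetrix mouse arrays, per the labels' protocols. The deposited values are MAS5 signal intensities, per the submitters' processing notes; no detection calls were used here, and the MAS5 settings are not given in the sources used here. Of 45101 probe sets, 64 controls, 932 with several gene symbols and 9160 with none in the platform annotation were left out. Signals had 16 added and were taken to log2, probe sets had to exceed the array's 40th percentile on 3 or more arrays, and the brightest was taken for each of 14645 genes.

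A linear model over all 4 groups (8 residual degrees of freedom) was fitted with limma 3.58.1 in R 4.3.3, with an intensity trend in the prior variance and Benjamini-Hochberg adjustment over all genes tested. A log2 fold change is on the log2(signal + 16) scale and understates the change of dim genes. The number of arrays limits the precision. A p-value here sets a difference between group means against the spread of samples within groups, with that spread drawn toward the intensity trend over all genes. The code was tested on simulated data.

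The series' text speaks of 3 sets of mice with paired intact animals. Deviations of same-numbered samples from their group means correlated between -0.00723 and 0.0258 over 18 pairs, and of other numbers between -0.0325 and 0.0352, so the fit has no term for the replicate number, and an alternative adds it as a block. Other alternatives were quantile normalization, median centring, 1 or 64 added, other filters, averaged probe sets per gene, array weights, no intensity trend and each array left out. Leaving out all 4 arrays numbered 3 and testing every probe set singly were chosen after seeing the data. All 35 members are named, with genes of the other lipid list that passed in a contrast (examples of these are given). The members and lists were chosen with earlier results of these data known. Figures were drawn with matplotlib 3.10.9. Promoter windows are those of RefSeq, searched for exact letters on both strands.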

Additional observations from a re-analysis of the deposited data

Results flagged for a closer look

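The castration differences of 5 genes differed between luminal and basal cells in the test of that difference (limma, luminal change minus basal change, log2). The values were 2.43 for Hmgcs1, 2.66 for Idi1, 3.33 for Sqle, 3.01 for Cyp51 and 2.79 for Insig1. For 3 of them, Hmgcs1, Sqle and Cyp51, both changes passed on their own, and for Idi1 and Insig1 the basal change alone passed.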

How the results depend on the processing

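Among the 34 genes and 5 comparisons, no called value changed sign under any alternative, and calls were lost and gained in 22 and 6 recomputed values for castration in luminal cells, 30 and 10 in basal cells, 31 and 26 between cell types in intact mice, 32 and 22 in castrated mice, and 14 and 6 in the test between cell types. Without the intensity trend the genes called were 1 higher in luminal cells, 1 lower in basal cells, 2 higher in luminal than basal cells of intact mice and 0 in the test between cell types, and all genes called were 555, 155 and 27 for luminal, basal and that test. With probe sets averaged per gene the luminal count lower was 0. With all 4 arrays numbered 3 left out it was 1 higher and 0 lower in luminal cells and 3 higher between cell types, with 527 and 86 of all genes called. Array weights gave 1945 and 202 of all genes called in luminal and basal cells, median centring 626 in basal cells, and adding 64 gave 1 gene lower between cell types. The cause was not tested.

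With 1 array left out, members called ranged from 1 to 5 higher in luminal cells, 4 to 9 lower in basal cells, 2 to 6 higher and 3 to 8 lower in luminal than basal cells of intact mice, and 9 to 16 higher in castrated mice, and in the test between cell types from 4 to 6 higher and 0 to 1 lower. All genes called ranged from 394 to 977 in luminal and 175 to 623 in basal cells, 2141 to 3129 and 1705 to 3132 between cell types in intact and castrated mice, and 65 to 159 in the test between cell types. The replicate block gave 805, 318, 2778, 2687 and 129 genes called in luminal cells, basal cells, between cell types in intact and castrated mice, and in the test between cell types, against 858, 384, 2852, 2701 and 168; among members it added Ebp and Srebf2 in intact mice (adjusted p = 0.0283 and 0.0355) and Srebf2 in castrated mice (0.0496), and changed no castration call. Signals near background limit Dhcr7, Tm7sf2, Nsdhl and Fdps in basal cells.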

Other observations

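Lpl, lipoprotein lipase, which frees fatty acids from circulating lipoproteins, was singled out after its values were seen. Its signals were 351.9, 97.57 and 132.9 in intact luminal cells and 1258, 1522 and 1509 in castrated luminal cells, with no overlap, and 12.91 to 154.6 in the 6 basal samples. Lpl rose by 2.97 ± 0.61 on the log2 scale in luminal cells (limma, adjusted p = 0.00657), was at -1.21 ± 0.61 in basal cells (adjusted p = 0.311), and the difference between these changes was 4.18 ± 0.86 (adjusted p = 0.0236). The adipocyte genes Adipoq, Fabp4 and Cidec had signals of 1.309 to 22.66 in the castrated luminal samples.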
